A study of Mus musculus with 2 samples.

Results

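The S100 genes encode small calcium-binding proteins, and 9 of them were followed here in 2 mouse RNA libraries: S100a1, S100a4, S100a6, S100a8, S100a9, S100a10, S100a11, S100a13 and S100a16. They were chosen by gene symbol, with earlier results of these data known. All 9 were found, each on 1 row, among the 34295 genes of the table. Another 8 S100 symbols stand in the same table and are described after them. The libraries are wild type C57BL/6J cells, 1 of mouse embryonic fibroblasts (MEF) and 1 of bone marrow derived macrophages (BMDM). The MEF were grown in complete DMEM with 10% serum from embryos of stage E13.5-E14.4 after removal of the head and fetal liver. They had been sorted negative for CD45, CD11b and F4/80, were used at passage 4 to 7 and had a labelled cell number of 100000. The BMDM came from whole marrow of mice of unstated age, kept for 6 days in macrophage growth medium (RPMI with 10% serum and 30% medium conditioned by L929 cells), and had a labelled cell number of 750000. Both were lysed after a night as adherent cells. The series asked which growth factors and growth factor receptors each culture expresses, and the S100 genes are read from the same table. With a single library of each, nothing can be said of replicate error and no test was made, and cell type cannot be told apart from medium, developmental stage, preparation and cell number.

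S100 proteins mostly work as dimers, each subunit carrying a pair of EF-hand helix-loop-helix folds. When calcium is bound, the subunit opens and exposes a face that grips a target protein, often an annexin or a part of the cytoskeleton. Some members are also released from cells, where they bind metal ions or act on receptors such as RAGE and TLR4 as signals of damage. In tissues, S100A8 and S100A9 are known from neutrophils and monocytes, S100A1 from muscle, and S100A4 under its other name, fibroblast-specific protein, although leukocytes make it too.

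Values are transcripts per 1000000 transcripts (TPM), a share of each library corrected for transcript length, so that levels of different genes can be set side by side within a library. Log2 ratios compare TPM plus 1, MEF over BMDM, while folds divide the TPM as listed. By the size rule used throughout, a gene counts as higher in a culture if it has 5 TPM or more there and a log2 ratio of 2 or more (4-fold) toward it. A value of 0 is only what the table lists, and no fold is given against it. The columns summed to 999545 TPM in MEF and 999609 TPM in BMDM, and the read depth behind them is unknown. A gene lower in a culture may be made by fewer of its cells or at fewer copies per cell, which bulk RNA cannot tell apart. Of 10 macrophage markers, 10 were higher in BMDM, led by Lyz2, Cd68 and Csf1r, and their summed level in MEF was 0.214% of that in BMDM. Of 10 fibroblast markers, 10 were higher in MEF, led by Sparc, Col1a1 and Col1a2, and their summed level in BMDM was 0.169% of that in MEF.

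As a group the 9 genes made up 13436 TPM in MEF and 5956 TPM in BMDM, a 2.26-fold higher sum in MEF. This was 1.34% of all transcripts in MEF and 0.596% in BMDM. S100a6, S100a4, S100a11 and S100a10 were the 4 highest in each library and held 98.3% of the S100 transcript in MEF and 89.7% in BMDM. Their order differed: S100a6 led in MEF, followed by S100a4, S100a11 and S100a10, whereas S100a4 led in BMDM, followed by S100a6, S100a10 and S100a11. Without S100a6 the sums were 7321 TPM in MEF and 4457 TPM in BMDM.

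**Figure D1:**
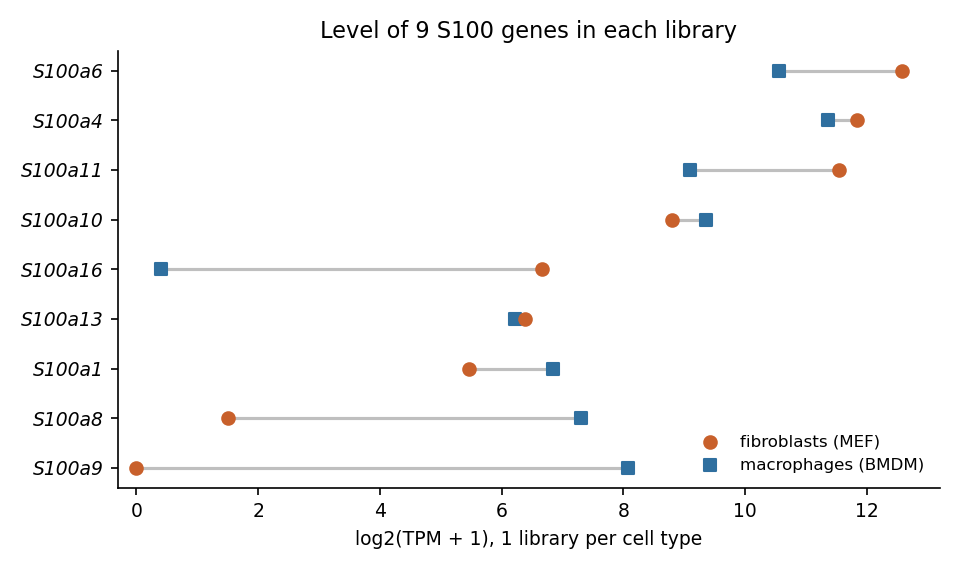
Level of each of the 9 S100 genes as log2(TPM + 1) on the horizontal axis, with circles for the fibroblast library and squares for the macrophage library and genes ordered by their fibroblast level. S100a16, S100a8 and S100a9 have the widest gaps, and S100a13 the narrowest, at 83.1 TPM in MEF and 73.2 TPM in BMDM.

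By the 4-fold rule, 3 of the 9 genes were higher in MEF (S100a6, S100a11 and S100a16), 2 in BMDM (S100a8 and S100a9) and 4 in neither. After either of 2 rescalings of the libraries S100a6 dropped below the limit, which left 2 higher in MEF. Over all 11191 genes that reached 5 TPM in MEF or BMDM, 14.3% were higher in MEF, 8.77% in BMDM and 23.1% in either. The median log2 ratio of the 9 genes was 0.18, beside 0.28 over the 13606 genes that reached 1 TPM in MEF or BMDM, called detected here. Their median size without regard to sign was 2.03, beside 0.76 over the same 13606 genes. The members therefore spread widely around a centre near that of the table, and with 9 genes these shares are counts, not a test.

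**Figure D2:**
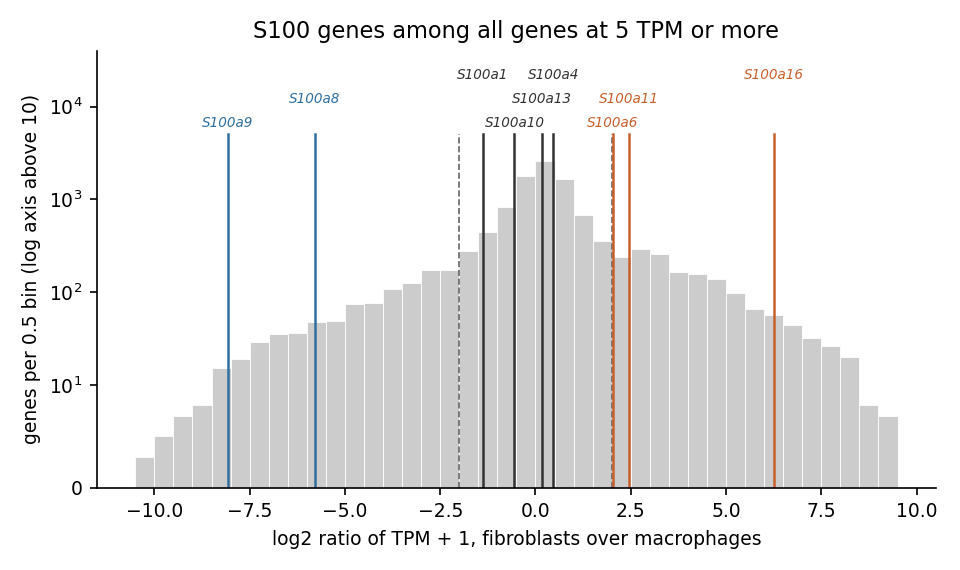
Number of genes (log axis above 10) in bins of 0.5 of the log2 ratio of TPM + 1, fibroblasts over macrophages, for the same 11191 genes, with a vertical line for each S100 gene and dashed lines at the 4-fold limits. S100a8 and S100a9 lie far out on the macrophage side at -5.79 and -8.07, S100a16 on the fibroblast side at 6.26, and S100a6 stands just past the limit at 2.03.

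The calprotectin genes S100a8 and S100a9 were the 2 members higher in BMDM. Their proteins form a heterodimer that withholds zinc and manganese from microbes and, once released, acts on TLR4 and RAGE. S100a8 stood at 1.85 TPM in MEF and 157 TPM in BMDM, where it was 84.9 times as high. S100a9 was listed at 0 in MEF and stood at 268 TPM in BMDM, with a log2 ratio of -8.07. In BMDM there were 1.71 S100a9 transcripts for each S100a8 transcript. Together they held 0.0138% of the S100 transcript in MEF and 7.13% in BMDM. The log2 ratio of S100a9 was larger in size than that of 99.4% of the 11191 genes, and that of S100a8 larger than 96.5%.

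Both genes are also abundant in neutrophils and monocytes, so markers of those cells were read beside them. Of 15 neutrophil markers, 6 were higher in BMDM and none in MEF, beside 8.77% and 14.3% over the table. Shares over the table, here and below, are of the 11191 genes that reached 5 TPM in MEF or BMDM. Listed genes below 5 TPM in both libraries stay in the list counts, though they could not be called. Of the 15 neutrophil markers, 6 reached 5 TPM in BMDM and 0 in MEF. The list summed to 1.49 TPM in MEF and 135 TPM in BMDM. In MEF 9 of the 15 were listed at 0. The highest in the macrophage library were the granule protein genes Ngp and Lcn2 and the receptor gene Csf3r, at 48.3, 30.1 and 15.2 TPM, while the neutrophil surface gene Ly6g was listed at 0 in both libraries. Of 7 monocyte markers, 4 were higher in BMDM and 1, the proteoglycan gene Vcan, in MEF, beside the same shares over the table. The list summed to 50.3 TPM in MEF and 244 TPM in BMDM. Of the 4 higher in BMDM, Ly6c2, Chil3 and Ccr2 had the highest values there, at 83.5, 34.0 and 32.5 TPM. Plac8, named after its values were seen, stood at 18.9 TPM in MEF and 68.5 TPM in BMDM, within the rule. The MEF, in which S100a8 was at 1.85 TPM, had been sorted negative for CD45, the surface marker that white blood cells share. The part of neutrophils or monocytes in the S100a8 and S100a9 values of BMDM was not tested.

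The start regions of the calprotectin genes are shown because both genes were higher in BMDM. They lie 22596 bases apart on chromosome 3 and point toward each other, S100a8 on the plus and S100a9 on the minus strand. Each sequence runs 5′ to 3′ on the strand of its gene from 250 bases before to 50 after the start (RefSeq, GRCm38.p6), at chr3:90668821-90669120 for S100a8 and chr3:90695672-90695971 for S100a9. Capitals mark matches on either strand to the letters of the TATA box, TATAAA, of a C/EBP site, TTGCNNAA, or of a site for the factor PU.1, GAGGAAG, whose match in S100a8 lies on the opposite strand. Positions are those of the leftmost letter as printed, counted from the RefSeq start.
S100a8: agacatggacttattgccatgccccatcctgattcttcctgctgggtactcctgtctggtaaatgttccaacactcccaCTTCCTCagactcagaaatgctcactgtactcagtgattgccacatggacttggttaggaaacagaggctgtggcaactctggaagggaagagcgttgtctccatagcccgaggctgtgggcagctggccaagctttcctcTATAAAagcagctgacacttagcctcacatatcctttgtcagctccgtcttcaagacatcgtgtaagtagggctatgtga
S100a9: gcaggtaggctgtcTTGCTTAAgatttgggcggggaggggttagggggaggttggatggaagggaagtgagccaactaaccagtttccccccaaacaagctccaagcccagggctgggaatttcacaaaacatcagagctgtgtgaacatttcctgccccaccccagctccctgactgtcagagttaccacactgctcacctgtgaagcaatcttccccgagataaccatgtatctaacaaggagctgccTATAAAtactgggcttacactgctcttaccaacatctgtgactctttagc

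The letters TATAAA stood at position -30 of S100a8 and began at the annotated start of S100a9. Of the 8 members with a start region in the RefSeq table, 3 held TATAAA (S100a4, S100a8 and S100a9), against 13.6% of all 32851 start regions. S100a10 had no start region in the RefSeq table, so it was not searched. The C/EBP letters were found in S100a9 alone among the 8 members searched, at position -236, and in 10.8% of all regions. The PU.1 letters were found in S100a4 and S100a8 and in 13.6% of all regions. TATAAA and the PU.1 letters also stood in the S100a4 region, a gene at 3650.3 TPM in MEF and 2645 TPM in BMDM that passed the rule in no direction.

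S100a6 and S100a4 were the most abundant members. S100a6 encodes calcyclin, which binds the ubiquitin-ligase scaffold protein CacyBP, and S100a4 encodes a protein that binds the heavy chain of nonmuscle myosin IIA. S100a6 stood at 6115 TPM in MEF, where it ranked 5 of all genes, and at 1499 TPM in BMDM, where it ranked 97. It was 4.08-fold higher in MEF, just past the rule, with a log2 ratio of 2.03 that was 1.85 after median-of-ratios scaling. S100a4 stood at 3650.3 TPM in MEF, at rank 22, and at 2645 TPM in BMDM, at rank 39, a 1.38-fold higher level in MEF that did not pass the rule. S100a4 was the highest S100 gene of the macrophages, at 44.4% of the S100 transcript there and 27.2% in MEF. S100a6 made up 45.5% in MEF and 25.2% in BMDM. The ratio of S100a6 to S100a4, which no scaling alters, was 1.68 in MEF and 0.567 in BMDM.

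**Figure D3:**
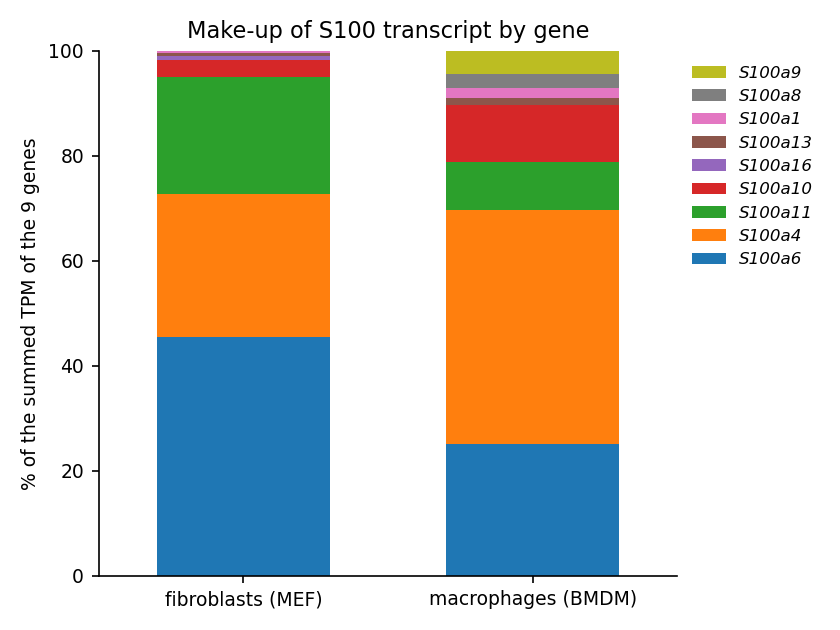
Share of each gene in the summed TPM of the 9 S100 genes, in % on the vertical axis, with the fibroblast library on the left and the macrophage library on the right. S100a6 is the largest block in MEF at 45.5% and S100a4 the largest in BMDM at 44.4%, where S100a9 and S100a8 also show, at 4.50% and 2.63%.

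The partner genes of these members stayed within the rule. Cacybp stood at 115 TPM in MEF and 67.4 TPM in BMDM, and Myh9, which encodes the myosin heavy chain bound by S100A4, at 363 TPM in MEF and 167 TPM in BMDM. There were 53.0 transcripts of S100a6 for each of Cacybp in MEF and 22.3 in BMDM, and 10.1 of S100a4 for each of Myh9 in MEF and 15.8 in BMDM.

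S100a11 and S100a10, which lie next to each other with 28792 bases between them, differed in their call. S100A10 is the light chain of the annexin A2 complex, holds its open form without calcium and helps to place plasminogen on the cell surface, and S100A11 binds annexin A1. S100a11 stood at 2997 TPM in MEF and 546 TPM in BMDM, a 5.49-fold higher level in MEF with a log2 ratio of 2.45. S100a10 stood at 446 TPM in MEF and 653 TPM in BMDM, 1.47 times as high in BMDM and within the rule, with a log2 ratio of -0.55. There were 6.73 transcripts of S100a11 for each of S100a10 in MEF and 0.836 in BMDM.

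The annexin partners themselves were close to level. Anxa2 stood at 1365 TPM in MEF and 972 TPM in BMDM, and Anxa1 at 1161 TPM in MEF and 831 TPM in BMDM. There were 0.327 transcripts of S100a10 for each of Anxa2 in MEF and 0.672 in BMDM. For S100a11 and Anxa1 the order was opposite, with 2.58 in MEF and 0.657 in BMDM.

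The start region of S100a11 (RefSeq, GRCm38.p6, plus strand, chr3:93520246-93520545) is shown because it held the AP-1 letters TGANTCA, which 7.81% of all regions hold. Of the 8 members searched, S100a11 and S100a16 were the 2 that held them. S100a11 held them at 2 places, positions -136 and -38, given in capitals, and S100a16 at position -192 of the later of its 2 start regions (plus strand, chr3:90540896-90541195). Both genes were among the 3 called higher in MEF. The third, S100a6, had no match in its region. The motifs were chosen with the values known, and a match is a run of letters, not a shown binding site.
S100a11: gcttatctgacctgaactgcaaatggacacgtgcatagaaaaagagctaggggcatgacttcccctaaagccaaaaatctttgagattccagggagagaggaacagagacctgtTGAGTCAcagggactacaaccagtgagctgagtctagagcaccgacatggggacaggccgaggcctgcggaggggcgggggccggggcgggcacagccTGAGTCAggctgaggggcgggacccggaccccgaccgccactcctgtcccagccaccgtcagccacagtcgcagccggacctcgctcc
S100a16: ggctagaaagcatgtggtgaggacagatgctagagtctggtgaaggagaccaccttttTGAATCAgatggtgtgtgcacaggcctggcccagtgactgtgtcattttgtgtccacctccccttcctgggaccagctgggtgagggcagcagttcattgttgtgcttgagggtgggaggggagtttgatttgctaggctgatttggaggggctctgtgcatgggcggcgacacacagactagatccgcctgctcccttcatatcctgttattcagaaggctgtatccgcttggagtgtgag

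S100a16 encodes a widely expressed S100 protein and had the largest log2 ratio toward MEF of the 9. It stood at 100.3 TPM in MEF and 0.322 TPM in BMDM, 311 times as high in MEF, with a log2 ratio of 6.26, larger in size than that of 97.3% of the 11191 genes. Its macrophage value was 0.321% of its fibroblast value. For the 10 fibroblast markers the same share ran between 0.0693% and 1.80%.

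S100a13 and S100a1 lie head to head and were both expressed in both libraries. S100A13 takes part in the export of FGF1 and interleukin 1 alpha by a route that bypasses the usual secretory pathway, and S100A1 regulates the ryanodine receptor in heart and skeletal muscle. S100a13 stood at 83.1 TPM in MEF and 73.2 TPM in BMDM. Its log2 ratio taken without the added 1, 0.18, equalled the median among the 8363 genes that reached 5 TPM in both. S100a1 stood at 43.2 TPM in MEF and 114 TPM in BMDM, 2.63 times as high in BMDM and within the 4-fold rule, with a log2 ratio of -1.38. There were 0.520 transcripts of S100a1 for each of S100a13 in MEF and 1.55 in BMDM, so the higher gene of the pair differed between the libraries.

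The shared start region of the pair is shown because 2 genes that differ in their ratio between the libraries begin in it. The RefSeq windows of the genes overlap by 204 bases at chr3:90514281-90514484 (GRCm38.p6, plus strand), and the start of S100a13 lies 105 bases to the right of that of S100a1. Capitals mark the stretch from the S100a1 start to the S100a13 start. The overlap has a GC content of 59.3%, beside a median of 52.7% over all regions, and none of the 4 motifs searched.
S100a1 and S100a13: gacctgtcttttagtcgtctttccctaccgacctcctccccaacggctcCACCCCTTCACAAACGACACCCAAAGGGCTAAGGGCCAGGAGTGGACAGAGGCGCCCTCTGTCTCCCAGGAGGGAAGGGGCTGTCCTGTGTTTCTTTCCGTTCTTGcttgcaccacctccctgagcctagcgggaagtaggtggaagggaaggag

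The genes for the FGF1 and ryanodine receptor partners named above were low, which does not extend to all partners of the pair. The FGF1 gene Fgf1 stood at 0.0788 TPM in MEF and 0.0980 TPM in BMDM. The ryanodine receptor genes Ryr1 and Ryr2, named after their values were seen, stood below 1 TPM in both libraries. Of 7 striated muscle markers, Tnnt2 was the 1 that reached 5 TPM, at 6.98 TPM in MEF and 0.881 TPM in BMDM.

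The remaining 8 S100 symbols of the table, left out of a choice made with earlier results known, were low, with 1 exception. S100a7a, a relative of the keratinocyte protein psoriasin, stood at 18.5 TPM in MEF and 0.166 TPM in BMDM, a log2 ratio of 4.06 that passed the rule. S100a3 and S100b reached 1.75 and 1.22 TPM in MEF, against 0.329 and 0.420 TPM in BMDM. The other 5 (S100a2, S100a5, S100a14, S100g and S100z) were below 1 TPM in both libraries, and S100a2 and S100z were listed at 0 in both. Counted with S100a7a, 4 of the 17 S100 symbols were higher in MEF and 2 in BMDM. Over all genes that reached 5 TPM in MEF or BMDM, the shares were 14.3% and 8.77%. The S100 symbols below 5 TPM in both libraries could not be called.

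The members, all 9 of them, lie in the S100 cluster of chromosome 3, as do all the S100a symbols of the table, so their place follows from the choice by symbol. In GENCODE M21 (GRCm38) the cluster of 14 S100 genes runs from S100a1 at 90511034 to S100a10 at 93564643. Of them, 12 stand in the first 184688 bases, from S100a1 to S100a9, where the only other protein-coding gene of the table is Gm42674. A gap of 2824766 bases then separates S100a9 from S100a11 and S100a10. It holds genes of the skin barrier, among them those of S100-fused proteins such as filaggrin. Not all neighbours shared a direction: S100a6, S100a7a and S100a8, which follow one another, had log2 ratios of 2.03, 4.06 and -5.79. S100a5, which lies between S100a4 and S100a6, stood at 0.973 TPM in MEF and was listed at 0 in BMDM.

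**Figure D4:**
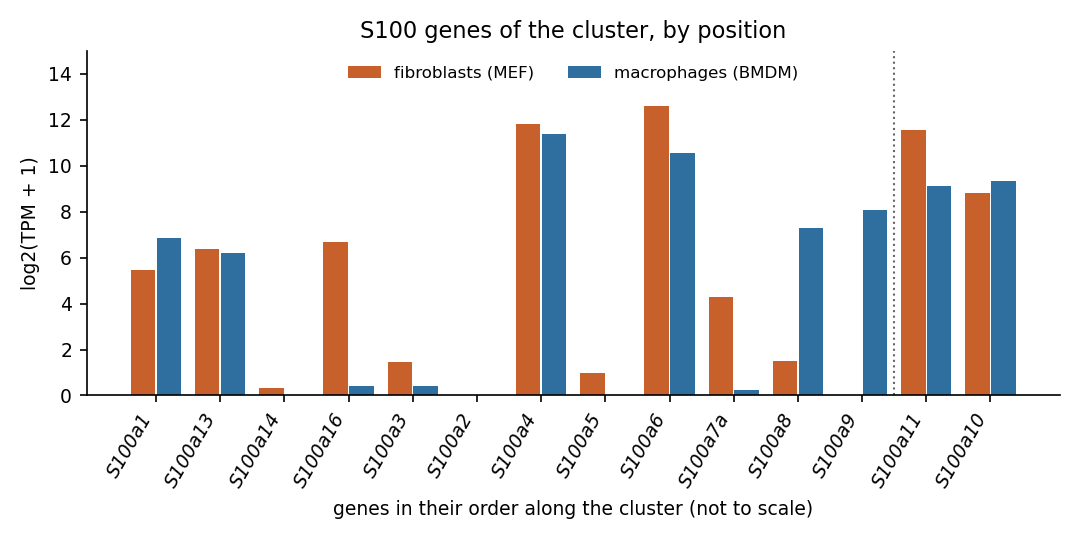
Level of the 14 S100 genes of the cluster as log2(TPM + 1), in their order along the chromosome and not to scale, with fibroblast bars left of macrophage bars and a dotted line at the gap after S100a9. S100a5, near 0, stands between S100a4 and S100a6, and the bars favour fibroblasts for S100a6 and S100a7a and macrophages for the next genes, S100a8 and S100a9.

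Of 61 other protein-coding genes between the outermost S100 genes, 45 were listed at 0 in both libraries and 2 reached 5 TPM. These were the cornified envelope genes Sprr2k, at 14.9 TPM in MEF and 0 in BMDM, and Lce1h, at 6.28 TPM in MEF and 0 in BMDM. Of 7 S100-fused genes, 0 were detected at 1 TPM. Of 6 keratinocyte markers none reached 5 TPM. The list summed to 2.38 TPM in MEF and 0.290 TPM in BMDM, 1 of the 6 was at 0 in MEF and 5 in BMDM, and the highest, Dsp and Cdh1, stood at 1.99 and 0.178 TPM in MEF and 0 and 0.290 TPM in BMDM. The part of skin cells in the S100a7a and Sprr2k values was not tested.

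Genes for receptors of secreted S100 proteins differed by member. Of 8 listed, 7 were detected, 1 was higher in MEF and 4 in BMDM, beside 14.3% and 8.77% over the table, and the median log2 ratio was -2.18. The lipid and pattern receptor genes Cd36, Cd14 and Tlr4 stood at 2.27, 1.78 and 8.65 TPM in MEF and 486, 404 and 42.8 TPM in BMDM. Mcam, an adhesion molecule gene, stood at 65.0 TPM in MEF and 1.78 TPM in BMDM, and Bsg, encoding basigin, at 1158 TPM in MEF and 494 TPM in BMDM, within the rule. Ager, which encodes RAGE, the receptor most often named for S100 proteins, stood at 0.937 TPM in MEF and 0.524 TPM in BMDM.

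The plasminogen system, which S100A10 joins at the cell surface, was divided by member. Of 9 listed genes, 6 reached 1 TPM. By the size rule 3 were higher in MEF, Serpine2 and Plat among them, and 1, Plau, was higher in BMDM, beside 14.3% and 8.77% over the table, and the median log2 ratio was 2.12. Serpine2, encoding a protease inhibitor, stood at 578 TPM in MEF and 1.47 TPM in BMDM. The tissue activator gene Plat stood at 27.7 TPM in MEF and 0.136 TPM in BMDM, and the urokinase gene Plau at 119.8 TPM in MEF and 739 TPM in BMDM. The urokinase receptor gene Plaur stood at 103 TPM in MEF and 138 TPM in BMDM, and plasminogen itself, Plg, at 0.104 and 0.252 TPM.

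The genes for targets inside the cell stayed within the rule. Of 18 listed, 12 were detected, and 0 passed the rule in either direction, beside 23.1% over the table. In each library 11 of the 18 reached 5 TPM, and the rest could not be called. The median of the 12 log2 ratios was 0.49, beside 0.28 over all detected genes. The highest were Anxa2 and Anxa1, given above. Ahnak, encoding the scaffold protein bound by the S100A10 and annexin A2 complex, stood at 77.9 TPM in MEF and 57.5 TPM in BMDM.

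**Figure D5:**
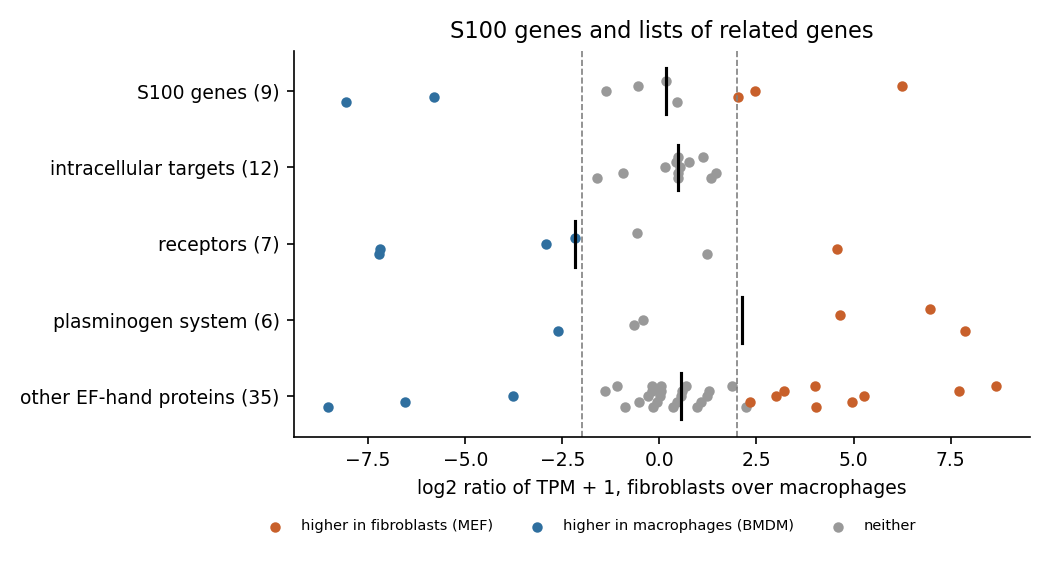
Log2 ratio of TPM + 1, fibroblasts over macrophages, of the 9 S100 genes and of the detected genes of 4 related lists, with the number of genes in brackets, 1 point per gene, a black bar at each list's median and dashed lines at the 4-fold limits. The 12 intracellular targets stay between the limits, whereas the S100 genes, the receptors, the plasminogen genes and the other EF-hand proteins reach past both.

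The protein-coding genes nearest to a member in both libraries were sought for the highest member of each library and for the one with the largest ratio, by distance over log2(TPM + 1) in the 2 libraries. Nearest to S100a6 were Actg1, Myl6 and mt-Nd3, at distances of 0.50 to 0.88. Nearest to S100a4 were Lgals1, Rps24 and Tpt1, at 0.16 to 0.34. Nearest to S100a9 were Fcrls, Fcgr1 and Ccl4, at 0.19 to 0.20. With 2 libraries such likeness says only that the levels were close.

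The members are short and distantly related, which bears on how reads are assigned. In GENCODE M21 their longest transcripts run from 498 bases (S100a4 and S100a8) to 1127 bases (S100a16), and a length-corrected value of a short transcript depends on the fragment length assumed. Between the 36 pairs of members the coding sequences, translated, were identical at 13.1% to 44.6% of alignment positions, with the highest value shared by S100a4 with S100a6 and S100a4 with S100a1. Gaps count among these positions, and the S100a13 model, at 160 residues the longest, gave the lowest value, with S100a8. Pairs without S100a13 started at 17.8%. S100a8 and S100a9, whose products pair, were identical at 25.7%. No pair of members shared a run of 31 bases, and 6 members shared none with any other gene. S100a4 shared 49.2% of its 31-base runs with Gm42674, a gene annotated across S100a3 and S100a4 at 3.03 TPM in MEF and 0.653 TPM in BMDM. S100a11 shared 48.9% with 6 other genes, the highest of them the processed pseudogene Gm12854 at 2.74 TPM in MEF and 0 in BMDM. The division of reads between those genes and S100a4 or S100a11 is therefore uncertain, while the values listed for them were small beside those of S100a4 and S100a11.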

How the data were processed

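Poly(A) RNA of 1 fibroblast and 1 macrophage library was sequenced after a stranded kit in paired reads of 76 bp, per the labels' protocols. The submitters' processing notes name kallisto 0.43.1 and GRCm38. Which transcripts were used, how they were joined into genes and whether rows were filtered is not given in the sources used here. Per row and library, the authors deposited 1 value with no unit, read here as TPM from the column sums, just under 1000000.

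Rows sharing a symbol were added (34456 rows, 34295 genes, of which 32189 matched GENCODE M21), and date-like names were kept apart. No replicates exist, so no statistical test was made. The 4-fold rule, on TPM plus 1, was checked on simulated data with fixed fold changes, drawn from genes well expressed in both libraries. That setting does not cover genes near 0 in a library or ratios close to the limit. The members and gene lists were chosen with earlier results of these data known, the promoter motifs after the values. Named genes are all members, other S100 genes at 1 TPM or more, set partners and, per list, up to 3 genes per direction with the highest TPM, or the 2 highest where none passed; 1 gene that this rule names is not reported here. Python 3.11.15 and Biopython 1.88 were used. Protein identities come from global alignments of translated GENCODE coding sequences (BLOSUM62). Alternatives were pseudocounts of 0.1 and 5, another minimum (1 TPM, 10 TPM, or no minimum), a 2-fold rule, 2 rescalings, the highest single row, and protein-coding genes alone.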

Additional observations from a re-analysis of the deposited data

How the results depend on the processing

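Across 10 alternatives, 7 of the 9 genes kept their call in all, and no call reversed. The count higher in MEF fell from 3 to 2 under each of the 2 rescalings. The count higher in BMDM rose from 2 to 3 with the 2-fold rule, so the counts were equal under these alternatives. Scaling by median of ratios removed a shift of 0.18 from the log2 ratios. This took S100a6 to 1.85, below the limit, and the log2 ratio of the summed levels to 0.99 in place of 1.17. The median of the 9 genes went to 0. That follows from the scaling, because S100a13, the median member, had a ratio equal to the shift. Rescaling without mitochondrial genes and the 50 highest gave log2 ratios of 1.90 for S100a6, 1.04 for the summed levels and 0.049 for the median. With a 2-fold rule S100a1, at -1.38, counted as higher in BMDM. The log2 ratio of S100a9, listed at 0 in MEF, depends on the added number and was -11.39 with 0.1 and -5.77 with 5. That of S100a8 was -6.33 and -4.56 and that of S100a16 was 7.89 and 4.31 in the same way, with the calls kept. Over all genes, the counts higher in MEF and BMDM were 1602 and 981, against 896 and 652 with 5 added and 2637 and 1698 with a 2-fold rule. No paired analysis was possible because each cell type has 1 library. The depth is unknown, so no detection limit can be given for the low values.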

Other observations

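Other families of EF-hand calcium-binding proteins were read beside the S100 genes. Of 39 listed, 35 were detected. By the size rule 9 were higher in MEF and 3 in BMDM, beside 14.3% and 8.77% over the table, 23 passed it in no direction, and the median log2 ratio was 0.55. The highest of the 9 were the myosin light chain gene Myl9 and the secretory-pathway genes Calu and Rcn3, at 953, 913 and 473 TPM in MEF and 1.33, 97.8 and 1.26 TPM in BMDM. The 3 higher in BMDM were led by the actin-bundling gene Lcp1, at 1.37 TPM in MEF and 885 TPM in BMDM, followed by Efhd2 at 30.7 and 430.2 TPM and Aif1 at 0 and 92.0 TPM.

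Markers of other cells that use S100 genes were mostly low. Of 6 chondrocyte markers, 3 were higher in MEF, beside 14.3% over the table, where 23.1% passed the rule in either direction. These were Comp, Col2a1 and Sox9, at 30.1, 6.11 and 5.03 TPM in MEF, against 0.248, 0 and 0 TPM in BMDM. Of 6 glial markers, Mbp was the 1 past the rule, at 1.22 TPM in MEF and 16.5 TPM in BMDM. Of 5 endothelial markers 0 passed it, and the highest, Kdr and Pecam1, stood at 3.10 and 1.97 TPM in MEF and 6.14 and 1.33 TPM in BMDM. S100b, known from glia and cartilage, stood at 1.22 TPM in MEF and 0.420 TPM in BMDM.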
